A study of Mus musculus with 19 samples.

Results

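Liver RNA was compared between mice with low and high animal numbers, within reproductive stage. The number is the one that each mouse carries in its sample name, and 13 of the 19 mice of the series entered the comparison. The 6 low-numbered mice, all under 200, were the nulliparous animals NUL_1, NUL_4 and NUL_13 and the lactating animals LAC_36, LAC_102 and LAC_133. The 7 high-numbered mice, 200 and above, were NUL_220, NUL_221, NUL_226 and NUL_227 and LAC_200, LAC_213 and LAC_240. The animals nearest to the boundary were LAC_133 below it and LAC_200 above it. The remaining 6 mice, at involution day 6 after weaning, run from ID6_201 to ID6_232, so that for them stage and range of number cannot be told apart. They stayed out of the fit, and their values are given beside those of named genes.

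All 19 mice were females labelled Balbc, 12 weeks old, and none carried a transgene or received an agent according to the labels. Nulliparous mice had not been pregnant, and lactating mice were at day 10 of lactation. The study's methods name 2 suppliers of Balb/c mice, Charles River Laboratories and The Jackson Laboratory. Which of them each mouse came from is not given in the sources used here, and neither the labels nor the methods name a batch. RNA came from flash-frozen liver, and each mouse gave 1 library, so that p-values measure the spread between separate animals. Values are TPM, each gene's share of all transcripts in a mouse after correction for gene length, scaled to a sum of 1000000, and they keep no record of depth.

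Inbred mice of the same name can descend from breeding lines that were separated long ago and that carry different alleles. A known case in Balb/c mice is Zhx2, a zinc finger and homeobox protein of hepatocytes that represses the fetal liver genes Afp, H19 and Gpc3 after birth. BALB/cJ mice, the line kept at The Jackson Laboratory, carry a retroviral insertion in Zhx2 that lowers its expression. Liver RNA also follows feeding, time of day, sex hormones, growth hormone pulses and handling of the tissue, through gene groups that are well known. These include the Cyp4a and Acot genes of fasting, the clock genes, the major urinary proteins and the immediate early genes, which respond to stress within minutes. Lists of such genes were therefore described beside the genes with the largest differences.

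Of 11535 genes that averaged 1 TPM or more over the 13 mice, 304 differed between the ranges with stage in the fit, which is 2.64% of the genes tested. A gene was called where the adjusted p was under 0.05 and the means of log2(TPM + 1) were at least 1 apart, a scale on which changes of weakly expressed genes come out too small. The high-numbered mice were higher in 113 genes (0.98%) and lower in 191 (1.66%). In the same fit, 137 genes (1.19%) differed by stage, 83 with more and 54 with less RNA in lactation, and 36 genes were called for both range and stage. With no threshold on the fold change, 3836 genes (33.3%) had an adjusted p under 0.05, 2542 higher and 1294 lower in high-numbered mice. That balance depended on scaling, since median-ratio scaling of the mice gave 1823 higher and 1850 lower. The median log2 difference over all genes tested was 0.075 and fell to 0.006 after that scaling.

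The stages share no mouse, so that each gives a value of its own. In nulliparous mice alone 298 genes were called (2.58%), 132 higher and 166 lower in high-numbered mice, and in lactating mice alone 318 genes (2.76%), 125 higher and 193 lower. Of the 298 genes called in nulliparous mice, 290 had the same sign in lactating mice, or 97.3% against 69.8% of all genes tested. A total of 179 genes were called in the same direction in both stages, which is 60.1% of those called in nulliparous and 56.3% of those called in lactating mice, and 0 were called in opposite directions. Across the 11535 genes, which are not independent replicates, the log2 differences of the stages had a Pearson r of 0.697 and a Spearman rho of 0.555. Among the 304 genes called with both stages in the fit, 245 separated the ranges fully, 94 higher and 151 lower, in that within each stage every high-numbered mouse lay on the same side of every low-numbered mouse. Over all genes tested, called or not, 1910 (16.6%) did not overlap in this way. Of the 304 genes, 245 were also called in all 13 fits that left out 1 mouse each.

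**Figure D1:**
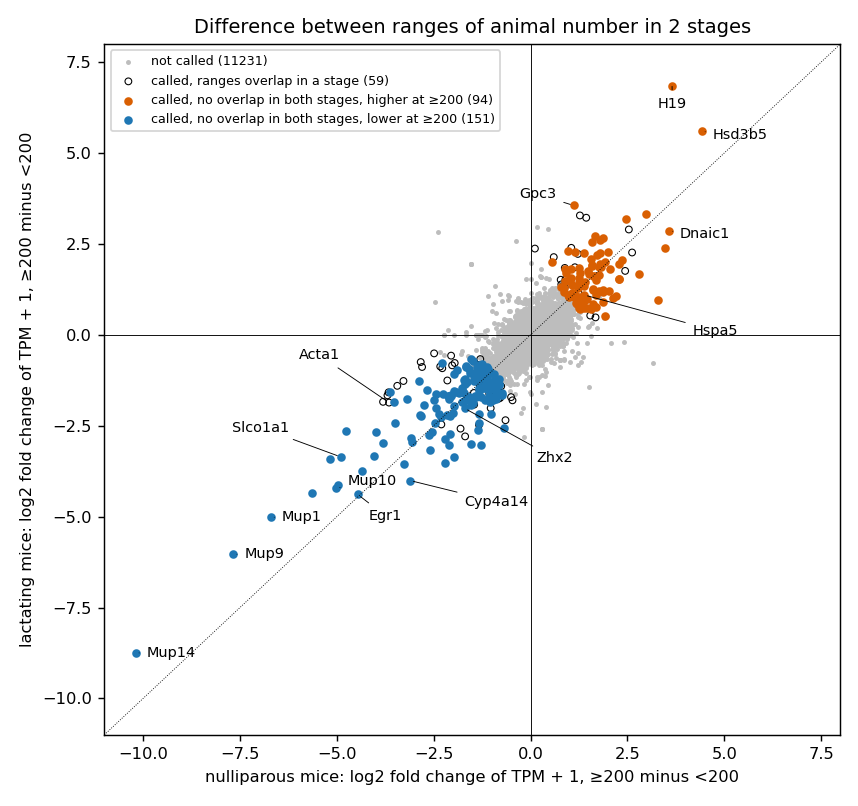
Each point is 1 of 11535 genes, with the log2 fold change of TPM + 1 between high-numbered (≥200) and low-numbered (<200) mice in nulliparous mice on the x axis (4 against 3) and in lactating mice on the y axis (3 against 3). Orange and blue points are the 94 and 151 called genes without overlap in either stage, open circles the 59 other called genes and grey points the rest, and the dotted line marks equal values.

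The tissue was checked against lists of marker genes. NUL_1, NUL_4, LAC_102 and LAC_133, all low-numbered, stood apart in holding skeletal muscle transcripts, whose values are given with the immediate early genes. Of 11 hepatocyte markers tested, 0 were called in limma-trend, 4 had an unadjusted p under 0.05, and the median log2 difference was 0.07. Alb, the gene of serum albumin, had a log2 fold change of 0.38 (limma-trend adjusted p = 0.00733). Markers of Kupffer cells, the macrophages of the liver, were higher in high-numbered mice by less than the threshold on the fold change. Of their 14 genes, 11 were higher at an adjusted p under 0.05, as were 2542 of all 11535 genes, and 0 were called. Their median log2 difference was 0.43, and their summed level was 382 to 479 TPM in low-numbered and 576 to 676 TPM in high-numbered nulliparous mice. In lactating mice the sums overlapped, with 268 to 385 TPM against 358 to 472 TPM. In bulk tissue a larger number of such cells and more RNA per cell cannot be told apart. Mitochondrial transcripts held 13.4% to 14.6% of TPM in low-numbered and 11.7% to 13.3% in high-numbered nulliparous mice, and 13.7% to 14.6% against 10.2% to 11.9% in lactating mice. A principal component analysis of the 13 mice gave a first axis with 37.5% of the variance, on which scores ran from -32.7 to -21.3 in low-numbered mice and from 18.8 to 27 in high-numbered mice.

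Zhx2 itself was near absent in high-numbered mice. This gene (ENSMUSG00000071757, chromosome 15 of GRCm38 from 57694665 to 57839832) had 2.79, 2.36 and 2.64 TPM in low-numbered nulliparous mice against 0.08, 0.10, 0.12 and 0.11 in high-numbered ones. In lactating mice it had 3.73, 3.14 and 3.48 TPM against 0.13, 0.06 and 0.10. The mean of the low-numbered mice was 30.4 times that of the high-numbered mice, where each range is the mean of its 2 stages. The log2 fold change was -1.85 (standard error 0.08, limma-trend adjusted p = 5.40e-09), and the ranges lay far apart in both stages. In the involution mice, all of the high range, Zhx2 lay between 0.06 and 0.27 TPM.

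Among 10 genes of a list made of Zhx2 and genes it is known to repress or otherwise control, 4 rose and 2 fell in high-numbered mice (limma-trend). Zhx2 itself was 1 of those that fell, and 0.98% of all genes were called higher and 1.66% lower. The 4 that rose were H19, Gpc3, Lpl and Mup3. The list sets no direction for each member, so that its count of rises is not a count of genes that Zhx2 represses. H19, an imprinted RNA of fetal liver (chromosome 7 from 142575529 to 142578143), had 14.1, 2.83 and 0.05 TPM in low-numbered nulliparous mice and 34.5, 35.8, 65.4 and 67.8 TPM in high-numbered ones. In lactation it had 0.37, 0.50 and 0.98 TPM against 125, 99.1 and 475 TPM. Its ranges did not overlap in either stage, although the low-numbered nulliparous mice themselves spread widely, and its log2 fold change of 5.14 (standard error 0.67, limma-trend adjusted p = 8.91e-05) was the largest positive one among the genes that separated the ranges. Within each stage the low-numbered mice stood in the same order for H19 as for the muscle gene Acta1, given further below. A part of muscle in these H19 values was not tested. Involution mice held 14.9 to 85.7 TPM of H19.

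Gpc3, which encodes the cell surface proteoglycan glypican 3, is located on chromosome X from 52272426 to 52613950. It measured 0.78, 1.05 and 0.52 TPM in low-numbered nulliparous mice against 1.5, 1.7, 4.47 and 4.80, and 0.48, 0.68 and 0.61 TPM in low-numbered lactating mice against 13.7, 18.6 and 21.7. The log2 fold change was 2.25 (standard error 0.39, limma-trend adjusted p = 7.16e-04), without overlap in either stage, and involution mice had 4.06 to 6.48 TPM. Elovl3, an elongase of very long chain fatty acids on chromosome 19 from 46131897 to 46135694, moved the other way. It had 9.13, 9.11 and 15.1 TPM in low-numbered nulliparous mice and 3.14, 2.65 and 2.20 TPM in low-numbered lactating mice, but at most 0.08 TPM in any high-numbered mouse, including values listed at 0 (log2 fold change -2.73, standard error 0.25, limma-trend adjusted p = 4.12e-06).

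Afp, the gene of alpha-fetoprotein and the best known target of Zhx2, was not called. Its values were 2.49, 1.6 and 3.16 TPM against 2.40, 2.82, 1.74 and 2.10 TPM in nulliparous mice, where the ranges overlapped. In lactating mice they were 3.30, 4.98 and 3.89 TPM against 6.01, 6.55 and 7.12 TPM, without overlap. The log2 fold change with both stages in the fit was 0.25 (standard error 0.15, limma-trend adjusted p = 0.21), and it was 0.59 in lactating mice alone (limma-trend adjusted p = 0.0446). Lpl, the gene of lipoprotein lipase, rose by a log2 fold change of 1.07 (limma-trend adjusted p = 0.00945), with overlap in nulliparous mice. Without the 4 mice with muscle transcripts H19, Gpc3 and Mup3 were called higher and Lpl was not, and 3 members of the list were also called higher without LAC_240 and after quantile normalization. Cyp2a4 and Cyp2a5, which encode steroid and coumarin hydroxylases, had log2 fold changes of 0.09 and -0.20 with limma-trend adjusted p of 0.572 and 0.585. The part of Zhx2 in these differences was not tested.

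**Figure D2:**
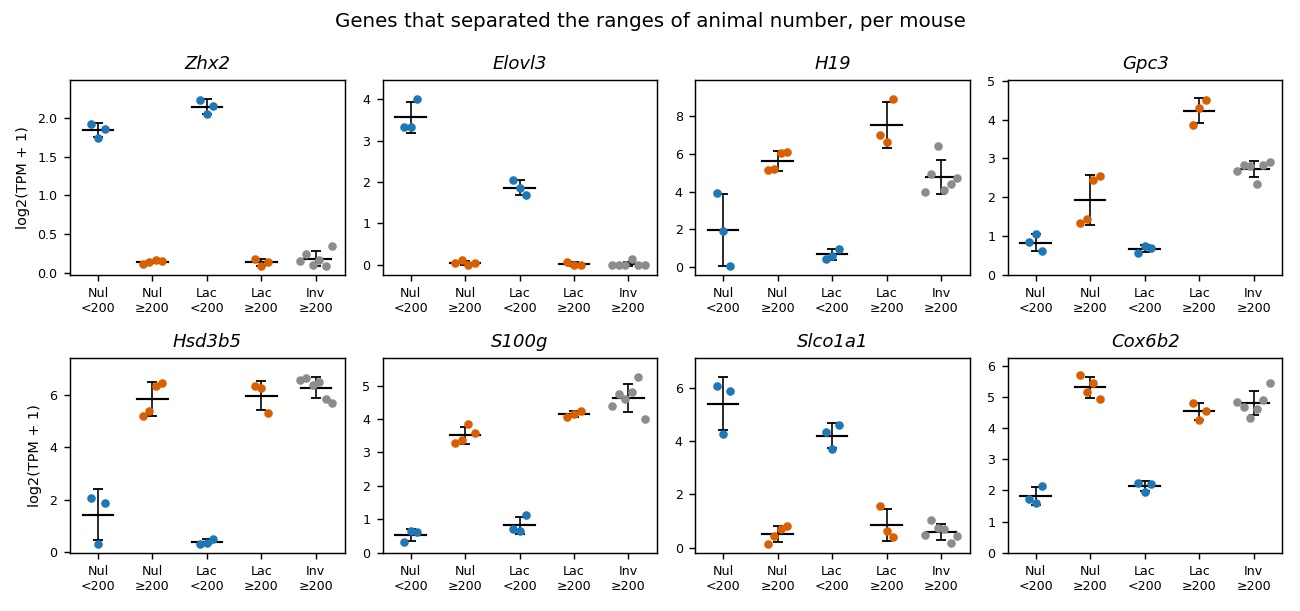
Values of 8 genes as log2(TPM + 1) per mouse, with low-numbered mice in blue, high-numbered nulliparous and lactating mice in orange and involution mice in grey. Black bars are means and error bars SD (n = 3, 4, 3, 3 and 6), and in each panel all blue points lie on 1 side of the orange points of the same stage.

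The largest decreases were in the major urinary proteins (Mup), small secreted carriers of pheromones that the liver makes under growth hormone and that lie side by side on chromosome 4. Of 21 Mup entries 12 were tested, 8 fell in high-numbered mice and 1, Mup3, rose (limma-trend), against 1.66% and 0.98% of all genes. Mup14 (61300023 to 61304000) had 836, 1451 and 1415 TPM in low-numbered nulliparous mice and 321, 551 and 447 TPM in low-numbered lactating mice. It was listed at 0 in 6 of the 7 high-numbered mice and at 0.09 TPM in the other, NUL_226, and at 0 in all involution mice. The log2 fold change of -9.52 (standard error 0.24, limma-trend adjusted p = 2.04e-11) was the largest of all genes.

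Mup9 and Mup1 followed, with 41.4 to 342 TPM and 23.7 to 153 TPM in low-numbered mice and at most 0.31 TPM of either in high-numbered mice. Mup17 had 5.50 to 105 TPM in low-numbered mice against 0 to 1.42 TPM. Mup19, Mup10, Mup2 and Mup11 were listed at 0 in every high-numbered mouse. In low-numbered mice Mup19 held 7.88 to 74.2 TPM, Mup10 14.7 to 32.4 TPM, Mup2 10.1 to 23.1 TPM and Mup11 0.37 to 13.8 TPM. Each of these genes separated the ranges in both stages. Mup copies are nearly identical, so that the level of a single copy is uncertain, since RSEM had to apportion their shared reads.

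Mup3 (62083476 to 62087342) rose instead. It had 2752, 2238 and 3209 TPM in low-numbered nulliparous mice against 5073, 7191, 7606 and 4566 TPM, and 1003, 911 and 1194 TPM in low-numbered lactating mice against 6666, 4291 and 4344 TPM (log2 fold change 1.67, standard error 0.21, limma-trend adjusted p = 7.66e-05). Mup20, which encodes the male pheromone darcin, had a log2 fold change of 0.80 that did not reach the threshold on size. The sum over the family was 4549 ± 696 TPM (SD, n = 3) in low-numbered and 6159 ± 1515 (SD, n = 4) in high-numbered nulliparous mice, and 1686 ± 178 (SD, n = 3) against 5175 ± 1357 TPM (SD, n = 3) in lactating mice. Mup3 held 51.8% to 68.8% of that sum in low-numbered mice and 98.2% to 99.4% in high-numbered mice. In involution mice, which are high-numbered, it held 99.1% to 99.6% of a sum of 6832 ± 1112 TPM (SD, n = 6).

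**Figure D3:**
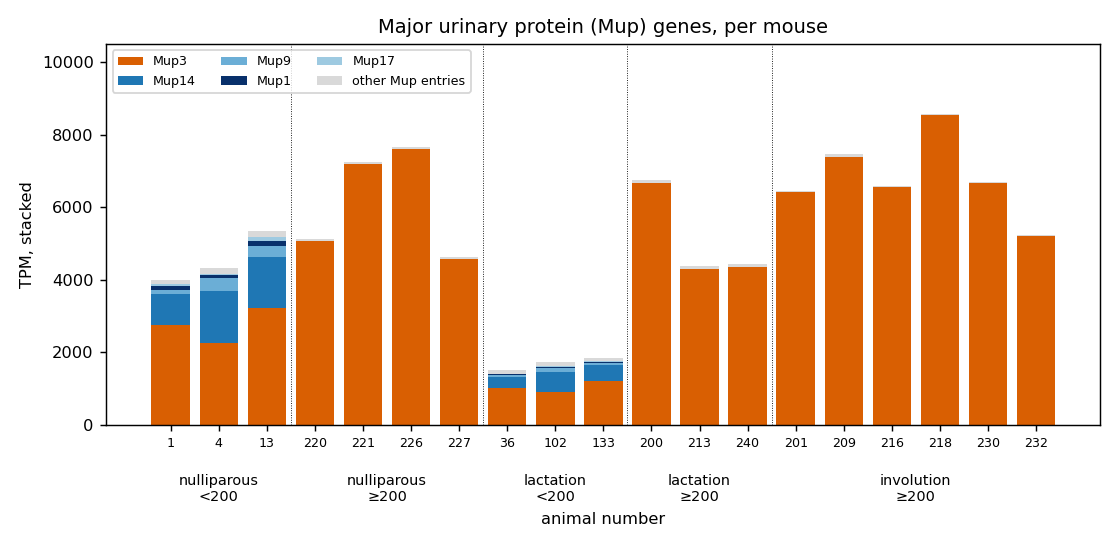
Stacked TPM of the Mup genes for each of 19 mice, ordered by group and animal number, with Mup3 in orange, Mup14, Mup9, Mup1 and Mup17 in shades of blue and all other Mup entries in grey. Blue segments make up a visible part of the bars of the 6 low-numbered mice alone, and the bars of high-numbered mice are nearly all Mup3.

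Several Mup genes are part of a list of 28 tested genes that depend on growth hormone or differ between the sexes in liver, of which 1 rose and 8 fell, where 0.98% and 1.66% of all genes did. The median log2 difference of the list was -0.31, against 0.075 over all genes tested. The gene that rose was Hsd3b5, a steroid dehydrogenase typical of male liver, on chromosome 3 from 98618634 to 98630252. In nulliparous mice it had 3.20, 0.24 and 2.69 TPM against 35.5, 40.4, 80.4 and 85.9 TPM, and in lactating mice 0.23, 0.28 and 0.40 TPM against 79.6, 76.0 and 39.1 TPM. The log2 fold change was 4.97 (standard error 0.34, limma-trend adjusted p = 2.86e-07), and involution mice reached 50.2 to 98.6 TPM. The related Hsd3b1 also rose, from 0.12 to 3.64 TPM over the low-numbered mice to 5.40 to 36.4 TPM over the high-numbered mice, whereas reads of these paralogs may be divided between them.

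Slco1a1, an uptake transporter for bile acids and organic anions (chromosome 6 from 141907282 to 141946962), is likewise higher in male liver but fell. It had 66.8, 18.5 and 58.4 TPM in low-numbered nulliparous mice and 19.5, 11.9 and 23.3 TPM in low-numbered lactating mice. High-numbered nulliparous mice had 0.09, 0.34, 0.63 and 0.77 TPM and high-numbered lactating mice 1.94, 0.54 and 0.32 TPM, without overlap. Its log2 fold change was -4.18 (standard error 0.35, limma-trend adjusted p = 1.90e-06). Sult3a1, a sulfotransferase typical of female liver, fell from 164, 89.1 and 189 TPM to 0.72, 4.51, 4.08 and 14.5 TPM in nulliparous mice, and from 159, 202 and 141 TPM to 57.3, 51.8 and 5.13 TPM in lactating mice. Its log2 fold change of -3.77 (standard error 0.61, limma-trend adjusted p = 4.76e-04) was not called in lactating mice alone, where the adjusted p was 0.0776 in limma-trend. Hsd3b5 and Slco1a1, both typical of male liver, thus stood on opposite sides.

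The 12 largest increases were taken among genes that separated the ranges in both stages, which leaves out larger called increases with overlap such as Serpina4-ps1 (2.71 on the log2 scale), A1bg (2.46) and Csad (2.27). Most of the 12 belong to none of the lists. S100g, the calcium-binding protein calbindin D9k, had 0.25 to 1.17 TPM in low-numbered mice against 8.72 to 17.98 TPM in high-numbered mice (log2 fold change 3.15, standard error 0.12, limma-trend adjusted p = 1.11e-09). Cox6b2, a cytochrome oxidase subunit known from testis, had 2.01 to 3.72 TPM against 17.99 to 50.5 TPM, and Dnaic1, a dynein chain of motile cilia, had 0.65 to 1.99 TPM against 10.1 to 48.2 TPM. Both separated the ranges in each stage, with log2 fold changes of 2.98 for Cox6b2 and 3.24 for Dnaic1.

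More abundant among the increases was Selenbp2, a selenium-binding protein, with 45.6 to 235 TPM in low-numbered and 388 to 848 TPM in high-numbered mice. Fabp5, a carrier of fatty acids, had 10.98 to 106 TPM against 80.6 to 623 TPM. Its ranges overlapped when the stages were pooled but not within either stage. Sult2a3 had 1.40 to 22.2 TPM against 16.7 to 126 TPM, Slc22a29 0.58 to 6.46 TPM against 10.7 to 24.7 TPM and Tspyl4 0.61 to 2.37 TPM against 6.37 to 14.3 TPM. Sult2a3 also overlapped with the stages pooled, and it was not called in lactating mice alone (log2 fold change 0.97). Its reads may be divided with those of its paralogs. The sum over 8 Sult2a entries averaged 1484 against 1485 TPM in nulliparous and 1705 against 1279 TPM in lactating mice. The predicted genes with the largest increases were Gm6166, Gm15611 and Gm16551, with log2 fold changes of 2.24, 2.21 and 1.94. In the involution mice, 11 of the 12 named genes that rose lay above every low-numbered mouse, the exception being Fabp5, and all 12 that fell lay below every low-numbered mouse. Those mice belong to the high range as well as to another stage.

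Genes of the unfolded protein response, which chaperone and clear misfolded proteins in the endoplasmic reticulum, were higher together. All 18 of the list had a positive difference, with a median of 0.94 on the log2 scale, 9 were called higher and 0 lower, against 0.98% of all genes called higher. Leaving out any 1 mouse gave 8 to 9 called members. Hspa5, the chaperone BiP on chromosome 2 from 34771970 to 34777547, had 228, 318 and 333 TPM in low-numbered nulliparous mice against 628, 614, 724.5 and 1159 TPM. In lactating mice it had 487, 466 and 435 TPM against 877, 1196 and 925 TPM (log2 fold change 1.25, standard error 0.15, limma-trend adjusted p = 4.35e-05). All 7 high-numbered mice thus lay above all 6 low-numbered mice for this gene.

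Many genes of this response carry an endoplasmic reticulum stress element in their promoters, CCAAT, then 9 bases, then CCACG, which the factors NF-Y and ATF6 bind. RefSeq promoters on build GRCm38.p6, taken from 250 bases before to 50 after the start, were searched for it on both strands. The element stood in 0.137% of 27025 gene symbols, in 0.185% of the 8663 tested genes with a matched promoter and in 7 of the 16 list members that had one. It was found for 4 of 78 matched genes called higher and for 0 of 135 called lower. The 4 were Hspa5, Creld2, Derl3 and Syvn1, all of them on the list. Their stretches before the RefSeq start are shown 5′ to 3′ on the gene's strand, which is the plus strand for all 4, with the element in capitals, which reads as its reverse complement in Creld2 and Derl3, because they are the called members with a match. For Hspa5 the RefSeq start lies inside the gene as GENCODE places it, so that the stretch falls within the coordinates given above. A match is a description of the sequence and no measurement of binding.
Hspa5, chr2:34771985-34772083: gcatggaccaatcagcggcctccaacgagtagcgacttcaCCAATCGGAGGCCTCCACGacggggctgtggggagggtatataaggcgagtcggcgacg
Syvn1, chr19:6046492-6046575: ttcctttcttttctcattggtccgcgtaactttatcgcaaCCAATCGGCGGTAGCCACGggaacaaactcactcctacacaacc
Creld2, chr15:88819480-88819578: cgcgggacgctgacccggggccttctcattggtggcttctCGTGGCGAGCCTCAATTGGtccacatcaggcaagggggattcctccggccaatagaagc
Derl3, chr10:75893202-75893300: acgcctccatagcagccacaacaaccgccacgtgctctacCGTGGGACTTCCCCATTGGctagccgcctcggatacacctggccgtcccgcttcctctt

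Creld2, a secreted endoplasmic reticulum stress protein, had the largest difference of the list. It measured 14.04, 15.2 and 20.4 TPM in low-numbered nulliparous mice against 58.8, 66.6, 79.8 and 152 TPM, and 41.6, 32.8 and 40.9 TPM in low-numbered lactating mice against 97.0, 138 and 109 TPM (log2 fold change 1.94, standard error 0.21, limma-trend adjusted p = 1.99e-05). Syvn1, the ubiquitin ligase that marks misfolded proteins for degradation, had 13.9, 14.6 and 17.7 TPM against 47.8, 44.5, 48.1 and 84.1 TPM, and 32.8, 27.3 and 27.9 TPM against 66.0, 69.4 and 72.1 TPM. Both separated the ranges in each stage. Sdf2l1, Hyou1, Manf, Dnajb9 and Dnajb11, further chaperones and stress proteins, were called with log2 fold changes of 1.71, 1.67, 1.26, 1.11 and 1.04, again without overlap in a stage. Derl3, a channel component for degradation, was at 0.57 to 1.97 TPM against 1.19 to 8.06 TPM and overlapped in nulliparous mice.

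The members with the element that were not called were Hsp90b1, Calr and Pdia6, abundant folding proteins of the endoplasmic reticulum. They had log2 fold changes of 0.64, 0.53 and 0.35 and limma-trend adjusted p of 4.13e-04, 4.45e-04 and 0.00360, and each separated the ranges. Xbp1 and Atf4, factors that drive the response, had log2 fold changes of 0.20 and 0.21 with limma-trend adjusted p of 0.158 and 0.191. NUL_227 was the highest of the nulliparous mice for Hspa5, Creld2, Syvn1 and Hyou1. Without the 4 low-numbered mice that carried muscle transcripts, which leaves 1 low-numbered mouse in each stage (NUL_13 and LAC_36), 7 members were called higher, and Derl3 and Dnajb11 were not. The involution mice held 537 to 968.5 TPM of Hspa5 and 44.7 to 104 TPM of Creld2.

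**Figure D4:**
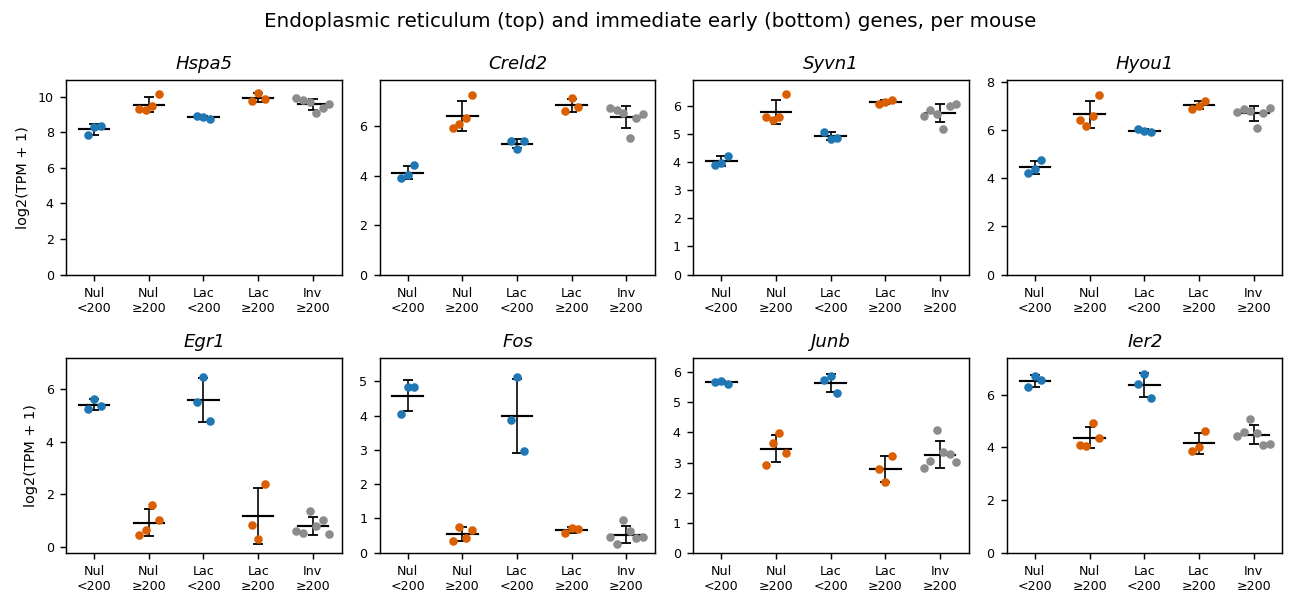
Values of 4 genes of the unfolded protein response (top) and 4 immediate early genes (bottom) as log2(TPM + 1) per mouse, with low-numbered mice in blue, high-numbered mice in orange and involution mice in grey. Black bars are means and error bars SD (n = 3, 4, 3, 3 and 6), and orange points lie above the blue points of their stage in the top row and below them in the bottom row.

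Several immediate early genes, transcription factors and regulators induced within minutes of a stimulus, were lower in high-numbered mice. Of 18 tested genes in a list that also holds heat shock genes, 7 fell and 1 rose, with a median of -0.85 on the log2 scale, against 1.66% of all genes called lower. Egr1 had 36.6, 47.9 and 39.7 TPM in low-numbered nulliparous mice against 0.38, 0.59, 2.02 and 1.03 TPM, and 44.6, 85.3 and 26.4 TPM in low-numbered lactating mice against 0.81, 0.24 and 4.2 TPM (log2 fold change -4.43, standard error 0.32, limma-trend adjusted p = 5.94e-07). Fos had 15.7, 27.6 and 27.5 TPM against 0.27, 0.69, 0.33 and 0.59 TPM, and 13.7, 33.7 and 6.85 TPM against 0.48, 0.64 and 0.61 TPM. The ranges of both genes were far apart in each stage, and involution mice had 0.41 to 1.56 TPM of Egr1 and 0.18 to 0.94 TPM of Fos.

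Junb and Ier2 separated the ranges as well, with log2 fold changes of -2.51 and -2.18. Jun (-2.38), Dusp1 (-1.53) and Myc (-1.12) were called but overlapped in a stage, and in NUL_226 Jun reached 28.95 TPM, against 28.6 to 48.5 TPM in low-numbered nulliparous mice. Hspa1b, an inducible heat shock protein, was the member that rose (log2 fold change 1.68, standard error 0.60, limma-trend adjusted p = 0.0447), with 2.00 to 35.1 TPM against 6.73 to 123 TPM, and its call was lost after median-ratio scaling and after quantile normalization. Without LAC_213 the list had 0 members called higher. In the fit without the 4 mice with muscle transcripts, with 1 low-numbered mouse in each stage, those 7 members were called lower, 9 members in all fell and 1, Hsph1, rose.

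In a list of 19 genes on RNA and library composition, 0 rose and 3 fell, against 0.98% and 1.66% of all genes, and 15 had a negative sign. The 3 were Meg3, Neat1 and Malat1, all long noncoding RNAs. Neat1, the scaffold of paraspeckles, had 97.7 to 234 TPM in low-numbered and 13.5 to 60.7 TPM in high-numbered mice (log2 fold change -2.22, standard error 0.29, limma-trend adjusted p = 8.12e-05). Malat1 had 91.7 to 194 TPM against 32.6 to 86.7 TPM. Meg3 had 5.03, 6.56 and 10.8 TPM against 0.47, 0.68, 0.46 and 0.29 TPM in nulliparous mice, and 7.67, 4.61 and 6.34 TPM against 0.13, 0.24 and 0.63 TPM in lactating mice. None of the 3 overlapped between ranges in a stage, and the part of tissue handling or RNA composition in the differences of other genes was not tested.

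Skeletal muscle transcripts were present in 4 low-numbered mice. Acta1, the actin of skeletal muscle, had 112 and 16.6 TPM in NUL_1 and NUL_4 and 4.2 and 8.07 TPM in LAC_102 and LAC_133, but 0 and 0.02 TPM in NUL_13 and LAC_36 and 0 in all 7 high-numbered mice. Of the involution mice, ID6_230 had 4.14 TPM and the others 0. Ckm, Tnnt3, Mb and Myl1 followed the same 4 mice. Together with Car3, a carbonic anhydrase of muscle, fat and liver, they were the 6 of 8 tested fat and muscle genes that fell, with a median log2 difference of -2.23. Without NUL_4 only 1 member of this list was called, and without all 4 of these mice it was Car3 alone. Car3 had 1609 to 3355 TPM in low-numbered mice against 380 to 885 TPM in high-numbered mice, including 3355 and 1756 TPM in NUL_13 and LAC_36, which lacked the muscle transcripts. Leaving these 4 mice out, an alternative added after seeing the data in which the lone low-numbered mouse of each stage is assumed to vary like the other groups, gave 277 called genes, 93 higher and 184 lower.

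Some genes that respond to fasting and to the fatty acid receptor PPAR alpha were lower in high-numbered mice. Of 19 fasting genes, 0 rose and 5 fell, against 0.98% and 1.66% of all genes, with a median log2 difference of -0.36. Cyp4a14, a fatty acid omega-hydroxylase (chromosome 4 from 115486200 to 115496142), had 620, 798 and 867 TPM in low-numbered nulliparous mice against 88.1, 103.4, 96.7 and 63.3 TPM, and 1274, 1370 and 1569 TPM in low-numbered lactating mice against 47.6, 84.1 and 159 TPM (log2 fold change -3.53, standard error 0.25, limma-trend adjusted p = 3.57e-07). Cyp4a10 had 593 to 1610 TPM against 42.7 to 275 TPM, and Acot1, a thioesterase, had 77.3 to 198 TPM against 5.58 to 17.8 TPM. These 3 genes separated the ranges in both stages, but each has close paralogs among which reads may be divided. The sum over 11 Cyp4a entries, which does not depend on that division within the family, was 1602 ± 308 TPM (SD, n = 3) against 159.6 ± 17.7 (SD, n = 4) in nulliparous mice and 3036 ± 202 TPM (SD, n = 3) against 375 ± 75.7 (SD, n = 3) in lactating mice.

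Igfbp1, a binding protein for insulin-like growth factors that rises in fasting, had 46.5 to 181 TPM against 3.44 to 37.1 TPM and did not overlap. Angptl4, an inhibitor of lipoprotein lipase, fell by 1.07 on the log2 scale and overlapped in nulliparous mice. Of the 19 fasting genes 17 had a negative sign. At a limma-trend adjusted p under 0.05, 7 were lower and 0 higher, against 1294 and 2542 of all 11535 genes. Pdk4 and Cpt1a were among those without a clear difference. Pdk4, which restrains glucose oxidation, had 6.69 to 15.3 TPM against 4.35 to 12.7 TPM (limma-trend adjusted p = 0.993). Cpt1a, the gate of fatty acids into mitochondria, had a log2 fold change of -0.20 (limma-trend adjusted p = 0.128). Ppara, the receptor itself, had 20.3 to 34.5 TPM in low-numbered and 14.6 to 34.8 TPM in high-numbered mice (limma-trend adjusted p = 0.563). Involution mice held 3.69 to 27.7 TPM of Cyp4a14, below all other mice.

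Most drug-metabolizing enzymes of a list under the receptors CAR, PXR and AhR were lower as well. Of 22 genes tested 0 rose and 7 fell, against 0.98% and 1.66% of all genes. An adjusted p under 0.05 with a negative sign was reached by 18 of them and by 1294 of the 11535 genes, and the median log2 difference was -0.86, or -0.94 after median-ratio scaling, where 10 were called lower. Cyp3a11, the main cytochrome P450 under PXR, had 2784, 2928 and 2161 TPM in low-numbered nulliparous mice against 376, 363, 459 and 350 TPM, and 2372, 1997 and 2459 TPM in low-numbered lactating mice against 556, 531 and 699 TPM (log2 fold change -2.37, standard error 0.15, limma-trend adjusted p = 1.40e-07). Ugt1a9, a glucuronosyltransferase, had 88.0 to 306 TPM against 12.0 to 80.5 TPM. Both separated the ranges in each stage, as did Cyp3a25 and Cyp2b13 with log2 fold changes of -1.16 and -1.15. Gsta1, Gsta2 and Gstm3, which conjugate glutathione, were called lower with overlap in a stage.

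Lists of synthesis, rhythm, bile acids and acute phase held fewer calls, to be read against 0.98% of all genes called higher and 1.66% lower. At an adjusted p under 0.05 with any fold change, 2542 of all 11535 genes were higher and 1294 lower. Of 20 genes of fatty acid synthesis 2 rose, among them Pnpla3, a lipid remodelling enzyme, with a log2 fold change of 1.32, and 19 of the 20 had a positive sign. Pnpla3 had 0.46, 0.09 and 0.48 TPM against 2.88, 0.93, 1.25 and 1.17 TPM in nulliparous mice and 3.38, 4.39 and 2.01 TPM against 12.99, 12.89 and 14.67 TPM in lactating mice, without overlap within a stage. Of 24 sterol synthesis genes 0 were called in limma-trend, while 7 had an unadjusted and 6 an adjusted p under 0.05, among them Insig1, a regulator of sterol synthesis, with a log2 fold change of 0.61. Of 17 clock genes 2 rose, the repressor Cry1 (log2 fold change 1.42) and the activator Npas2 (1.12), of which Cry1 alone was called without the 4 mice with muscle transcripts, while Per1 and Dbp, a repressor and an output gene of the clock, had log2 fold changes of 0.12 and -0.16 with limma-trend adjusted p of 0.776 and 0.766. Among 23 bile acid genes Slco1a1 was the 1 that was called, and it fell. Leaving out any 1 mouse gave 1 to 2 members called lower and 0 called higher. At an adjusted p under 0.05, 9 of the 23 were lower and 2 higher, and 17 had a negative sign. Cyp7a1, which sets the pace of bile acid synthesis from cholesterol, had a log2 fold change of -0.85 (limma-trend adjusted p = 0.0345).

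Of 26 acute phase genes 2 rose and 2 fell. Saa3, a serum amyloid A protein, had 0.87 to 7.74 TPM against 4.74 to 28.6 TPM, without overlap within a stage. Hamp, the iron hormone hepcidin and the 1 called gene of 13 in iron handling, had 3154, 5313 and 6071 TPM against 10404, 9358, 8814 and 8008 TPM in nulliparous mice and 590, 123 and 1524 TPM against 1764, 3488 and 2219 TPM in lactating mice (log2 fold change 1.59, standard error 0.46, limma-trend adjusted p = 0.0176). Il1rn, the interleukin 1 receptor antagonist, and Orm3, an acid glycoprotein, fell by 1.56 and 1.44 on the log2 scale. Of 17 cell cycle genes the inhibitor Cdkn1a rose, from 2.99 to 10.5 TPM over low-numbered mice to 16.5 to 34.1 TPM over high-numbered mice, and the proliferation genes Mki67 and Top2a were not called.

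In antigen presentation, 1 of 35 genes rose and 1 fell, against 0.98% and 1.66% of all genes, with a median log2 difference of 0.38. At an adjusted p under 0.05, 21 were higher and 1 lower, against 2542 and 1294 of all 11535 genes before median-ratio scaling. H2-Q7, a nonclassical class I molecule, had 0.95 to 1.87 TPM against 6.65 to 9.59 TPM (log2 fold change 1.94, standard error 0.11, limma-trend adjusted p = 5.16e-08), and H2-Q6 had 16 to 26.5 TPM against 5.29 to 11.3 TPM (-1.25). These neighbours are close copies, so that the division of their reads is uncertain, and the sum over 8 H2-Q entries was 976 ± 74.0 TPM (SD, n = 3) against 1125 ± 98.2 (SD, n = 4) in nulliparous mice. Markers of other cells were not called. This held for all tested genes of the lists of lymphocytes (6), neutrophils (2), sinusoidal endothelium (12), stellate cells and fibroblasts (15), cholangiocytes (5), red blood cells (6) and pancreas and intestine (4), in limma-trend, where an unadjusted p under 0.05 was reached by 3, 1, 4, 4, 1, 4 and 2 genes in that order. An adjusted p under 0.05 at a smaller fold was reached by 4 endothelial genes, Ehd3, Clec4g and Cdh5 among them, by 1 stellate cell gene (Colec11), by 1 red blood cell gene (Hbb-bt), all higher in high-numbered mice, and by Fabp2 of the intestine, which was lower. These counts too are to be read against 2542 genes higher and 1294 lower among all 11535. Among macrophage markers, Clec4f and Vsig4 had log2 fold changes of 0.63 and 0.48 and separated the ranges, and Cd5l had one of 0.67 and overlapped in lactating mice.

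**Figure D5:**
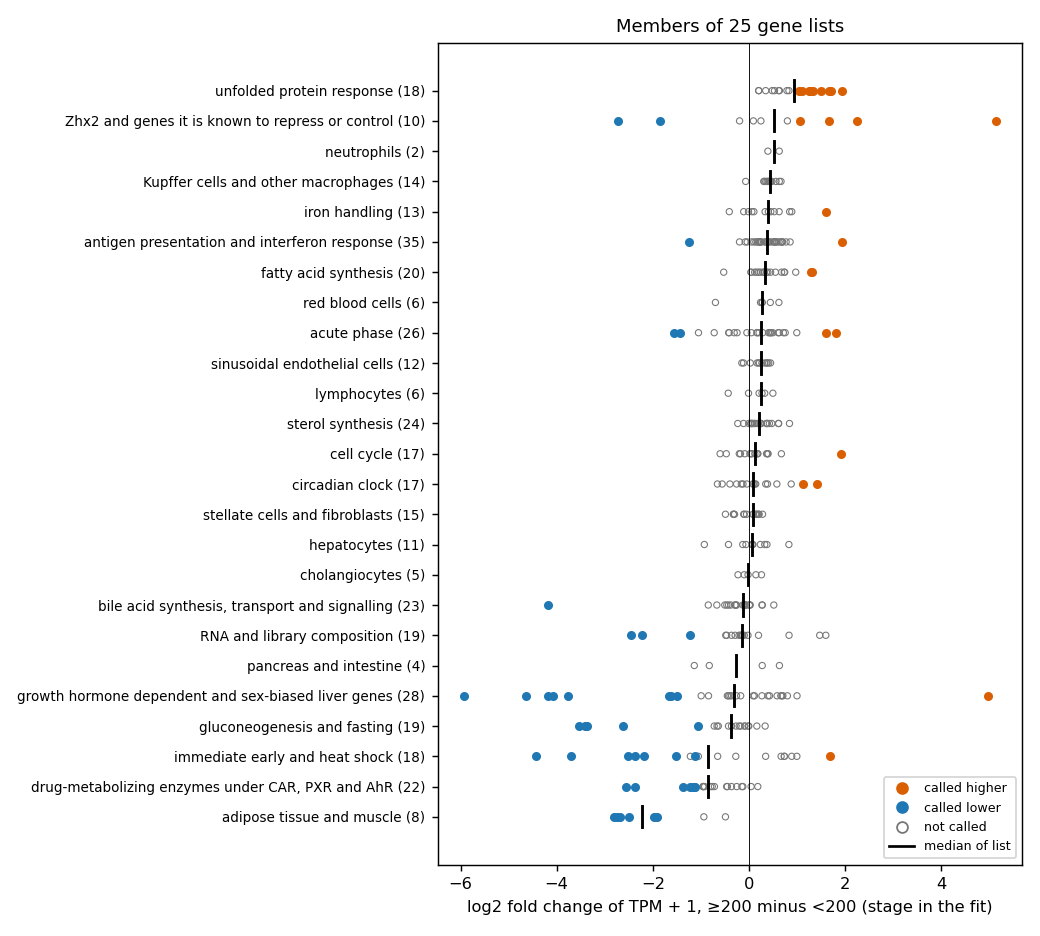
Log2 fold changes of TPM + 1 between high-numbered and low-numbered mice, with stage in the fit, for each tested member of 25 gene lists, ordered by the list's median (black bar) and with the number tested in brackets. Called members are orange (higher) or blue (lower) and others open, and the unfolded protein response and the fat and muscle list hold the highest and lowest medians, 0.94 and -2.23.

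Some genes were nearly on in 1 range and off in the other. At a level of at most 0.2 TPM in every high-numbered mouse and at least 1 TPM in every low-numbered mouse there were 12 genes, and in the opposite direction 0. Beside Zhx2, Elovl3, Mup2, Mup10, Mup14 and Mup19, these were Nlrp12, Sult2a7, Zfp973, Gm13775, Gm21320 and AC079680.2. Gm13775 starts at 61783123 on chromosome 4, next to Mup19, which ends at 61782269, and the Mup copies share reads. The 12 genes are thus not 12 separate places in the genome. Nlrp12, an innate immune receptor that restrains inflammation, had 5.42, 5.70 and 4.34 TPM in low-numbered nulliparous and 7.63, 9.57 and 8.05 TPM in low-numbered lactating mice, and at most 0.08 TPM in any high-numbered mouse (log2 fold change -2.85, limma-trend adjusted p = 1.46e-09). Zfp973, a zinc finger gene, had 1.76 to 2.55 TPM against 0 to 0.06 TPM. Sult2a7, a sulfotransferase whose reads may be divided with those of its paralogs, had 1.11 to 8.19 TPM against 0 to 0.07 TPM. These 3 were picked because of this pattern. In involution mice none of the 12 passed 0.3 TPM.

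The called genes were spread over the genome with local clusters. Of the 304, 293 could be placed in GENCODE release M21 on GRCm38, and 257 are protein coding. Taking called genes with gaps of at most 500000 bases, 16 groups held 3 or more and 60 genes in all, and most of them are families of neighbouring copies. The called share within a group ran from 3 of 26 genes tested, around Hspa1b, H2-Q6 and H2-Q7 on chromosome 17, to 5 of 5. Clustering beyond the density of genes was not tested. On chromosome 4, Mup2, Mup9, Mup1, Mup10 and Mup11 lay between 60135932 and 60662411, where all 5 genes tested fell. A second group from 61300023 to 62704001 held 7 called genes of 17 tested, Mup3 the one that rose. Others held Cyp3a genes on chromosome 5, Serpina genes on chromosome 12, Cyp4a genes on chromosome 4, Acot1, Acot2 and Acot3 on chromosome 12 and Sult2a genes on chromosome 7. A group on chromosome 7 from 142441808 to 142666816 joined H19 and Igf2, which rose, to the muscle genes Tnni2 and Tnnt3, which fell. Over the autosomes and X the called share ran from 0.755% of 265 genes on chromosome 18 to 4.73% of 719 on chromosome 4.

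Few genes had a difference between ranges that itself differed between stages. The interaction of stage and range was called for 15 genes (0.13%), 7 positive and 8 negative, and 8 of them were also called with both stages in the fit. This count rests on single mice: it was 0 without LAC_36, 5 without LAC_213, 7 without LAC_133 and 6 without NUL_4. Gpc3 had the largest, with a difference between ranges of 1.11 in nulliparous and 3.56 in lactating mice (interaction 2.45, standard error 0.41, limma-trend adjusted p = 0.0373). Alas2, the heme synthesis enzyme of red cells, had 16.1, 16.8 and 18.5 TPM against 5.77, 3.99, 7.18 and 4.66 TPM in nulliparous mice but 5.98, 6.34 and 6.09 TPM against 7.63, 6.14 and 8.96 TPM in lactating mice, where the ranges overlapped (interaction 1.78, limma-trend adjusted p = 0.0184). Mup1 had log2 differences of -6.71 and -5.02 (interaction 1.69, limma-trend adjusted p = 0.0465), but its high-numbered mice were near 0 in both stages (means 0.108 and 0.04 TPM). With a pseudocount of 1 this value therefore follows the low-numbered means of 117.3 and 33.4 TPM, and a change of the range effect cannot be told from it.

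In the other direction, Lad1, a filament protein of epithelia, differed by -0.69 in nulliparous and -2.56 in lactating mice (interaction -1.88, limma-trend adjusted p = 0.0198). Its high-numbered mice were likewise near 0 in both stages, with means of 0.108 and 0.0733 TPM, against low-numbered means of 0.837 and 5.36 TPM. Pcp4l1 separated the ranges in opposite directions, with log2 differences of 1.22 in nulliparous and -0.50 in lactating mice (interaction -1.72, limma-trend adjusted p = 0.0234). Ntrk2, a receptor for neurotrophins, had 0.39, 0.11 and 0.60 TPM against 4.25, 3.30, 2.60 and 3.63 TPM in nulliparous mice. In lactating mice it stayed at or below 0.23 TPM in both ranges (interaction -1.52, limma-trend adjusted p = 0.0202). The low-numbered and high-numbered means were 0.367 and 3.445 TPM in nulliparous mice and 0.0233 and 0.163 TPM in lactating mice. With a pseudocount of 1 this interaction follows the nulliparous level, and a change of the range effect cannot be told from it. An unadjusted p under 0.05 for the interaction was reached by 1703 of the 11535 genes.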

How the data were processed

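Poly(A) RNA of 19 mouse livers was sequenced with paired-end reads by the authors, aligned to GRCm38 and quantified per gene with RSEM 1.3.1 on Ensembl annotation. The aligner is not given in the sources used here. The authors deposited TPM values with 2 decimals for 51826 gene entries, of which 27 tested entries share a symbol with another. The depth per sample is unknown from TPM, which sum to 1000000 in each mouse, and no counting interval was given. RSEM divides reads that fit several genes. The authors used DESeq2 on counts, which was not repeated. Among 171 pairs of mice, 0 had identical values.

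Genes that averaged 1 TPM or more over 13 mice entered limma-trend fits (R 4.3.3 with limma 3.58.1) of log2(TPM + 1), with stage as covariate and Benjamini-Hochberg adjustment over 11535 genes. Calls needed an adjusted p under 0.05 with a log2 difference of at least 1 in size, the limits that the study set. Each stage was also fitted alone, and an interaction of stage and range was fitted. On simulated data, 199 of 200 genes changed by 1.5 on the log2 scale and 1 unchanged gene were called among 11535, and 0 in simulated data with no change. The changed genes were drawn from the more strongly expressed ones, with noise independent between genes. The simulation therefore does not show how weakly expressed genes are recovered. Positions are from GENCODE M21 and promoters from RefSeq, searched with Python 3.11.15. The members, lists and tests were chosen with earlier results of these data known. Named genes were the 12 largest called differences in each direction among genes that separated the ranges in both stages (predicted genes apart, 3 each), Zhx2, Afp, H19, Gpc3 and Elovl3, up to 4 called members of each list or 3 of the smallest adjusted p, and up to 3 interactions in each direction. Some genes that the rule would name are not reported here. Members of a list without a call, other family members and genes said to be picked for a pattern were named after their values were seen. Alternatives were other pseudocounts, filters, scalings, robust moderation, all 19 mice, no stage covariate, no threshold on the fold change and each mouse left out.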

Additional observations from a re-analysis of the deposited data

Results flagged for a closer look

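Among the 68 named genes, single values far from the rest of their group were looked for in the 4 high-numbered nulliparous mice and, for the genes with involution values, in the 6 involution mice. Of 91 such groups 12 held a value set apart, where chance gives about 1 in 20. H19 was at 85.7 TPM in ID6_216, against 29.5 TPM in the next highest. ID6_232 stood out with 27.7 TPM of Cyp4a14 and 109 TPM of Gm15611. Jun was at 28.95 TPM in NUL_226, against 4.33 TPM in the next, and Syvn1 at 84.1 TPM in NUL_227, against 48.1 TPM. NUL_220 had 14.1 TPM of Npas2, 2.88 TPM of Pnpla3 and 0.21 TPM of Lad1. It also had 0 TPM of Ckm, where the nearest value of its group was 0.02 TPM, so that the whole group was near 0. The values of Mup14 in NUL_226 (0.09 TPM), of Mup1 in ID6_230 (0.03 TPM) and of Elovl3 in ID6_218 (0.10 TPM) were set apart from groups that are otherwise listed at 0.

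The difference between ranges itself differed between lactating and nulliparous mice for 8 named genes, by a limma-trend interaction on the log2 scale. It was more positive in lactation for Gpc3 (2.45), Alas2 (1.78), Mup1 (1.69), Elovl3 (1.67) and Cyp4a10 (1.33), and more negative for Lad1 (-1.88), Pcp4l1 (-1.72) and Ntrk2 (-1.52). For Mup1, Elovl3 and Lad1 the high-numbered mice were near 0 in both stages. On the log2(TPM + 1) scale their interactions therefore follow the level of the low-numbered mice. For Mup1 and Elovl3 a change of the range effect cannot be told from these interactions. Elovl3 averaged 11.1 and 2.66 TPM in low-numbered nulliparous and lactating mice. Lad1 averaged 0.837 TPM in low-numbered nulliparous and 5.36 TPM in low-numbered lactating mice, against 0.108 and 0.0733 TPM in high-numbered mice. Its difference between ranges was thus larger in lactation on that scale, but a change in the ratio of the ranges cannot be told from values so near 0. Ntrk2 was near 0 in lactating mice of both ranges. Its value follows the nulliparous mice, and a change of the range effect cannot be told from it. Without LAC_36, 0 of these interactions were called.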

How the results depend on the processing

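No paired analysis was possible because the numbers in the labels are animal numbers that no mice share. All 27 named genes checked kept their direction and their side of the thresholds under every alternative in which they were tested (the filter at 10 TPM drops some), the 4 mice with muscle transcripts left out included. Counts of called genes stayed within 1.5 times of the reported ones in 172 of 197 cases. With a pseudocount of 0.1 there were 175 genes higher in high-numbered mice, 264 between stages, 449 in nulliparous mice alone and 8 interactions. With no filter there were 9 interactions. A filter at a mean of 10 TPM, which leaves fewer genes, gave 144 called genes (55 higher, 89 lower), 114 of them separating the ranges, 151 in nulliparous mice, 167 in lactating mice, 96 in both and 7 interactions. With no threshold on the fold change there were 3836 genes (2542 higher, 1294 lower), 1892 separating, 2872 in nulliparous mice, 1321 in lactating mice, 776 in both and 2128 between stages. With each mouse left out, counts ranged from 293 to 321 for all called genes, 110 to 124 higher, 182 to 197 lower, 245 to 274 separating, 263 to 354 in nulliparous mice, 284 to 319 in lactating mice, 153 to 183 in both, 130 to 152 between stages and 0 to 16 interactions. The interaction count was 0 without LAC_36, 5 without LAC_213, 7 without LAC_133 and 6 without NUL_4. TPM carry no depth, so that the precision of a single value is unknown, and values near 0 cannot be set against a detection limit.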

Other observations

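Several imprinted genes beside H19 separated the ranges, and they were picked after their values were seen. Grb10, an inhibitor of insulin signalling that is imprinted and active in fetal liver, had 1.17, 1.38 and 1.71 TPM in low-numbered nulliparous mice against 7.16, 7.29, 8.24 and 6.79 TPM, and 1.11, 1.01 and 1.37 TPM in low-numbered lactating mice against 7.49, 7.72 and 6.93 TPM (log2 fold change 1.87, limma-trend adjusted p = 2.55e-09). Igf2, the fetal growth factor next to H19, had 0.11 to 0.76 TPM in low-numbered mice and rose to 2.74 to 12.3 TPM in high-numbered lactating mice, but overlapped in nulliparous mice (log2 fold change 1.17, limma-trend adjusted p = 0.0363). Rian, a long RNA transcribed beside Meg3, had 3.48 to 8.29 TPM in low-numbered mice against 0.06 to 0.84 TPM in high-numbered mice (log2 fold change -2.15, limma-trend adjusted p = 2.31e-07). Cdkn1c, Igf2r and Peg3, imprinted as well, were not called, with log2 fold changes of 0.32, 0.13 and -0.36.

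Further genes known to respond to PPAR alpha, also picked after their values were seen, lay below the low-numbered mice in every high-numbered mouse of the same stage. Vnn1, a pantetheinase, had 10.4 to 22.0 TPM against 1.35 to 8.44 TPM, Ehhadh, the bifunctional enzyme of peroxisomes, 342 to 744 TPM against 157 to 248 TPM, and Acaa1b, a peroxisomal thiolase, 1480 to 2425 TPM against 646 to 828 TPM. Cd36, a fatty acid uptake receptor, had 48.3 to 136 TPM against 16.3 to 46.8 TPM. Among these Cd36 had the most negative log2 fold change after Vnn1 (-1.66 and -2.10), and Acadm, a mitochondrial dehydrogenase, was lower by less (-0.59, limma-trend adjusted p = 1.90e-04). Cdh1, the epithelial cadherin, rose from 2.03 to 5.23 TPM in low-numbered mice to 8.99 to 16.9 TPM in high-numbered mice (log2 fold change 1.84, limma-trend adjusted p = 3.37e-07). Erdr1 had 39.2 to 174 TPM against 8.26 to 16.8 TPM.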
